A study of Mus musculus with 4 samples.

Results

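Cohesin is a ring-shaped protein complex that holds sister chromatids together and folds chromosomes into loops. Its ring is formed by Smc1a, Smc3 and Rad21, to which Stag1 or Stag2 is attached. Nipbl loads the ring onto DNA, Esco1 acetylates Smc3, Cdca5 (sororin) protects the ring from release, and Wapal opens it with the help of Pds5a and Pds5b. Ctcf binds a defined DNA motif and stops cohesin there, which is why Wapal, cohesin and Ctcf are known to share many sites in embryonic stem cells (ESCs). The genes described here are Wapal, Pds5a, Pds5b, Smc3, Rad21, Stag1, Nipbl, Esco1, Cdca5 and Ctcf, 10 of 22380 protein-coding genes in the annotation, and the question is where Wapal was bound around the genes of its own complex.

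Wapal binding was mapped in mouse ESCs by biotin-mediated ChIP-seq, in which BirA, a ligase, puts biotin on the tagged protein inside the cell and streptavidin beads then pull it down with its DNA. The 4 libraries came from 2 independently derived FB Wapal clones (Flag- and biotin-tagged Wapal), 1 control line that expressed BirA without tagged Wapal, and 1 input of sheared genomic DNA, labelled as coming from the engineered cells. All cells were kept in standard ESC conditions, and the ages and sexes of the lines are not given in the sources used here. The FB Wapal clones were made by adding a Wapal cDNA in an expression vector to BirA-expressing ESCs, so they carry intron-free Wapal coding sequence that the BirA line lacks. The authors deposited 1 list of 8497 bound regions for both clones together and 1 list of 266 regions for BirA, so there is no spread between replicates, and no read counts are included, so the depth behind a region is unknown. They also hold no expression values, so the identity of the cells was not checked against marker genes. Each region has a position in mm9 and a MACS score, by the convention of that program 10 times the negative log10 of the p-value, and the scores of the FB Wapal list begin at 50.0. After removal of the regions that touched a BirA region, 8323 Wapal regions were left, with a median score of 81.4 and a median width of 812 bp. Genes were found by symbol in GENCODE release M1, all 10 of them, and the transcription start site (TSS) is the 5′ end of the gene record. All distances run from the TSS to the near edge of a region unless the centre is named.

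Of the 10 genes, 8 had a Wapal region within 100 kb of the TSS, against 60.0% of all protein-coding genes. They had 12 distinct regions between them, an average over the 10 genes of 1.2 per gene against 0.989 over all protein-coding genes. Smc3 had 3 regions, Wapal and Ctcf had 2 each, and Pds5b, Rad21, Stag1, Nipbl and Cdca5 had 1 each. Pds5a and Esco1 had none. In the whole annotation, 27.0% of protein-coding genes had 2 or more regions in the window and 9.07% had 3 or more. Within 10 kb of the TSS, a region was found at 2 of the 10 genes, Smc3 and Nipbl, against 9.12% of all protein-coding genes, and within 2 kb at Smc3 alone, against 2.03%. No BirA region lay within 100 kb of any of these start sites, and the nearest one was 1.69 Mb from the TSS of Ctcf. With a score of at least 100, 4 of the 10 genes had a region within 100 kb, against 27.8% of protein-coding genes. Within 10 kb, 0 of the 10 had one at that score, against 3.09% of protein-coding genes. These counts come from 10 genes and were not tested.

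**Figure D1:**
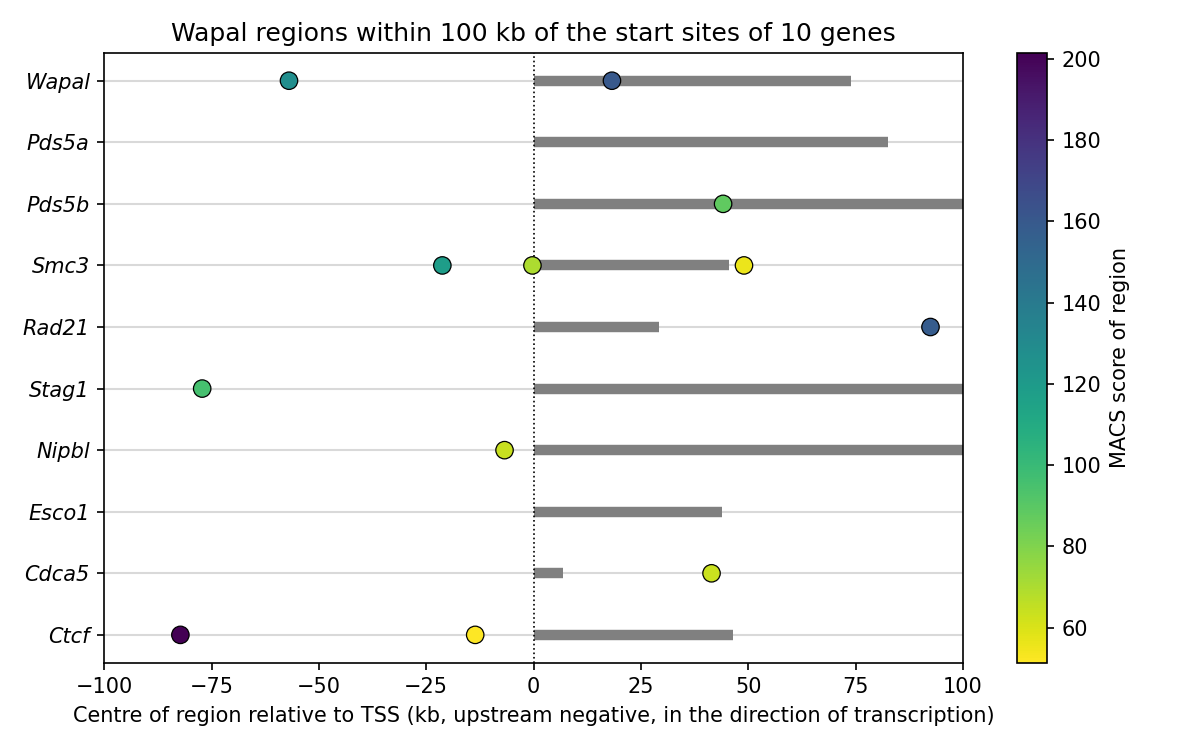
Position of each Wapal region (circle, at its centre) relative to the TSS of 10 genes, in kb along the direction of transcription, with gene bodies as grey bars that stop at the edge of the plot and circle colour giving the MACS score. The 12 regions lie on both sides of the start sites, 7 upstream and 5 downstream, and the rows of Pds5a and Esco1 are empty.

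The sequence under most of the regions held a match to the CTCF motif. The CTCF core motif has 12 positions and was searched on both strands, with at most 1 mismatch. It was present in 9 of the 12 regions (75.0%, 95% Wilson interval 46.8 to 91.1%, which covers counting error only), and in 74.5% of all 8323 Wapal regions, while 10.0% of stretches of the same width placed 5 kb to either side held it. Exact matches were found in 4 of the 12 (33.3%), against 28.3% of all Wapal regions and 0.745% of the flanking stretches. The best match of 8 of the regions is given here in mm9 on the plus strand with 15 bases on each side and the 12 motif positions in capitals, to show how near each comes to the motif. The first 4 are the exact matches, the next 3 have 1 mismatch, and the last one, from the region inside the Wapal gene, has 3 mismatches and is shown for contrast.
Ctcf upstream, chr8:108146451-108146492: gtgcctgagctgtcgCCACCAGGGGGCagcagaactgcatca
Stag1 upstream, chr9:100421162-100421203: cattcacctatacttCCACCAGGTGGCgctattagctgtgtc
Smc3 upstream, chr19:53653589-53653630: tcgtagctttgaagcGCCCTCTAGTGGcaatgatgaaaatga
Rad21 downstream, chr15:51730842-51730883: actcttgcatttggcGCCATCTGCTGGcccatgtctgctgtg
Nipbl upstream, chr15:8401204-8401245: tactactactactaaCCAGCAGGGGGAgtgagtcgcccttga
Pds5b intron, chr5:151520572-151520613: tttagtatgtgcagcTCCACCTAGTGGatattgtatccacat
Wapal upstream, chr14:35430162-35430203: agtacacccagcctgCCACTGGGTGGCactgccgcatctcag
Wapal exon, chr14:35505317-35505358: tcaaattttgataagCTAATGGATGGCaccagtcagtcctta
In these sequences the motif reads in its forward direction at Ctcf, Stag1, Nipbl and the upstream Wapal region, and in reverse complement at Smc3, Rad21 and Pds5b. The stretch from the Wapal exon does not count as a match. A match is a stretch of letters and was not measured as Ctcf binding here.

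Wapal, the release factor itself (chr14:35487114-35561169, plus strand), had 2 regions in the window. The first, chr14:35429722-35430593, was centred 57.0 kb upstream of the TSS, had a score of 128 and a width of 872 bp, and lay outside any gene with its motif 25 bp from its centre. Opn4, which encodes the photopigment melanopsin, had the nearest coding TSS, 16.4 kb away. The second, chr14:35504771-35505994, lay inside the Wapal gene with its centre 18.3 kb downstream of the TSS, and its edge lay 1.53 kb from the nearest start of another Wapal transcript. Its score of 160.2 was higher than that of 89.4% of all Wapal regions, and its 1224 bp made it wider than 90.3% of them.

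This second region followed the outline of a coding exon. Exon 3 of Wapal (chr14:35504868-35505920) is 1053 bp long and is the longest of 18 coding exons in the gene's first listed transcript. The region began 97 bp before the exon and ended 74 bp after it, so that 86.0% of the region was exon. None of the other 17 coding exons, which are 63 to 499 bp long, was touched by a region. Of the 8323 Wapal regions, 554 held a whole coding exon, but this was the 1 region whose edges both lay within 200 bp of the ends of a coding exon of at least 300 bp inside it, and with no minimum on the exon the count was also 1. At 500 bp the count was 7. This criterion was set after the position of the region had been seen. The borders of the exon are shown because the region ends just outside them, with intron in lower case and exon in capitals.
Start of exon 3, chr14:35504813-35504922: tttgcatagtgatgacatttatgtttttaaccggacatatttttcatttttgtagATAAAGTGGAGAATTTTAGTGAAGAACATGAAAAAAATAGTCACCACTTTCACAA
End of exon 3, chr14:35505866-35505975: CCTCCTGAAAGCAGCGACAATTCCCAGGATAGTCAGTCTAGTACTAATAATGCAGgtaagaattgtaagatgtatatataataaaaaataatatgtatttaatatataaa

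The best match to the CTCF core motif in this region had 3 mismatches, and 3.51% of all Wapal regions likewise had no match closer than that. Its GC content was 37.2%, against a median of 44.3% over all regions. The cDNA added to the FB Wapal clones contains this coding sequence without introns, and the BirA line does not carry it. Its part in the reads at exon 3 was not tested. Without this region, Wapal kept its upstream region, 56.5 kb from the TSS, the 10 genes had 11 regions within 100 kb, and 81.8% of those held the motif.

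**Figure D2:**
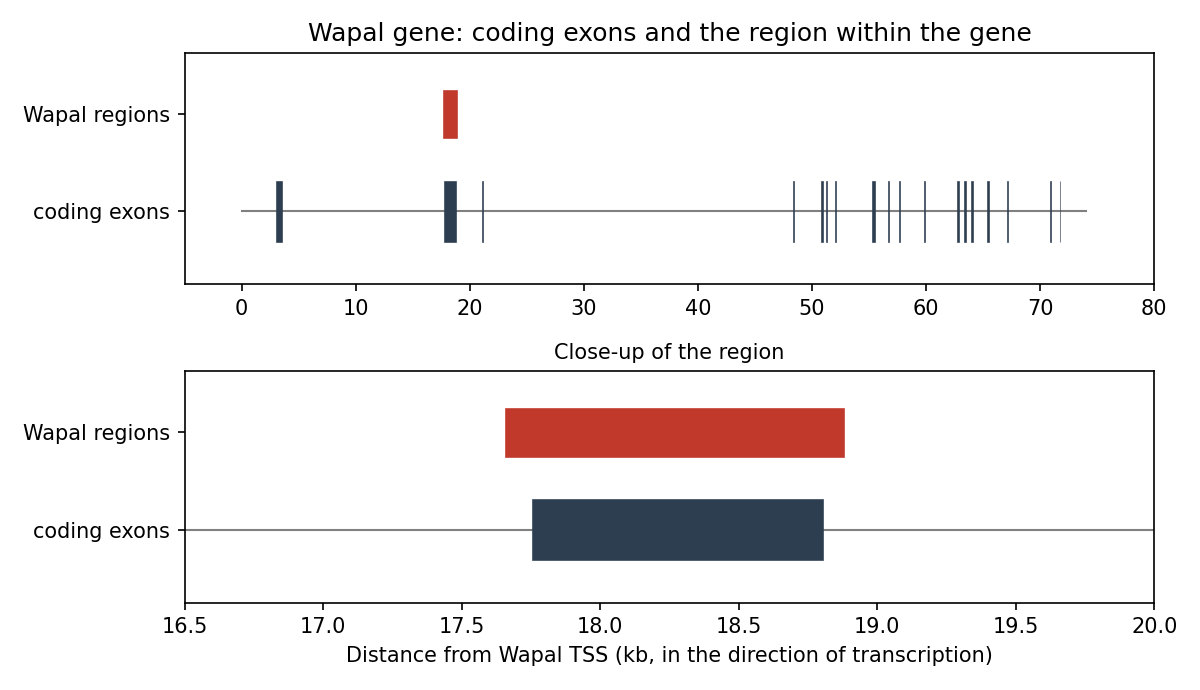
Coding exons (dark boxes) and Wapal regions (red boxes) along the Wapal gene, drawn to scale in kb from the TSS, with a close-up of the only region in the gene in the lower panel. The region covers the 1053 bp of exon 3 with a margin of 97 bp on the left and 74 bp on the right, and no other coding exon is covered.

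Of the Pds5 paralogs, which bind cohesin together with Wapal, Pds5b had a region in the window and Pds5a had none. Pds5b (chr5:151476314-151613265, plus strand) had a region in an intron, chr5:151520150-151520795, with its centre 44.2 kb from the TSS and a score of 88.3. At 646 bp this was the narrowest of the 12 regions, and it held the motif with 1 mismatch 120 bp from its centre. Pds5a (chr5:66006499-66089095, minus strand) had no region within 100 kb. The nearest one, chr5:66214658-66215382, lay 126 kb upstream with a score of 107 and an exact motif. On the other side, the nearest region was 296 kb from the TSS, so that Pds5a sat in an interval of 421 kb between neighbouring regions, the longest among the 10 genes. With a score of at least 100 the order of the paralogs turned, since the nearest region was then 331 kb from Pds5b and still 126 kb from Pds5a.

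Among the ring subunits, Smc3 had regions on both sides and at its start. Smc3 (chr19:53674886-53720323, plus strand) encodes the ring arm that Esco1 acetylates. Its first region, chr19:53653237-53654061, was centred 21.2 kb upstream with a score of 118 and the exact motif 40 bp from its centre, and its nearest coding TSS was that of Nutf2-ps1, 9.50 kb away. The last one, chr19:53723170-53724649, lay just past the end of the gene, centred 49.0 kb from the TSS, with a score of 56.0, a width of 1480 bp and a 1-mismatch motif 505 bp from the centre.

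The region at the start of Smc3, chr19:53674017-53675252, was the 1 region among the 12 that covered a member's TSS. It reached from 869 bp before to 366 bp after the TSS, and covered all 159 bp of the first exon. Its score of 69.9 was above that of only 36.1% of Wapal regions, while its width of 1236 bp was above that of 90.7%. Its GC content of 61.2% was higher than that of 99.7% of all regions, and it held 107 CpG dinucleotides. The motif, with 1 mismatch, ended 476 bp before the TSS and lay 230 bp from the centre of the region. A stretch of 300 bases of this promoter, chr19:53674386-53674685 on the plus strand, is shown with the motif in capitals because it holds the match and part of the CpG-rich sequence, with 29 CpG and a GC content of 64.3%.
Smc3 promoter: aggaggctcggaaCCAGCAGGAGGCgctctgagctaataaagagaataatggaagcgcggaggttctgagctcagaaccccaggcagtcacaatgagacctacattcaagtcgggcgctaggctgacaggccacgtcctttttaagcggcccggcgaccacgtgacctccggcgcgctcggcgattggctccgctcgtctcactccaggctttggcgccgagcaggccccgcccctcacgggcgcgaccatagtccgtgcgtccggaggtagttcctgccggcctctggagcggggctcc

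Rad21 and Stag1 had 1 region each in the window. Rad21 (chr15:51794151-51823306, minus strand) encodes the subunit that closes the ring. Its region, chr15:51730422-51731265, was centred 92.5 kb from the TSS, beyond the 3′ end of the gene, with a score of 158 and the exact motif 19 bp from its centre. The TSS of Utp23, a ribosome biogenesis gene, was nearer to it, at 21.4 kb. Stag1 (chr9:100498217-100858964, plus strand) encodes the subunit attached to the ring. Its region in the window, chr9:100420482-100421595, was centred 77.2 kb upstream in an intron of Nck1, which encodes a signalling adaptor, with a score of 95.9 and an exact motif 144 bp from its centre. Stag1 is 361 kb long and held a further region in an intron, chr9:100810665-100811362, 312 kb downstream of the TSS with a score of 76.7 and a 1-mismatch motif. From the nearest start of any Stag1 transcript, the nearest region was 20.6 kb away.

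Nipbl (chr15:8241225-8394463, minus strand), the loader, had its region 6.39 kb upstream of the TSS. The region, chr15:8400856-8401577, had a score of 63.9, below the median of all regions, and its motif was 8 bp from its centre, the shortest such distance among the 9 regions with a motif. No other protein-coding TSS lay within 100 kb of that of Nipbl. None of its 153 kb gene body was touched by a region, and the next region, on the far side of the gene, was 346 kb from the TSS. Pds5b, Stag1 and Nipbl are the members of at least 100 kb in length, and 2 of these 3 had a region in the gene body, while 48.2% of 2401 protein-coding genes of that length had one in the body or within 2 kb of the TSS.

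Of the genes that guard cohesin against release, neither had a region near its start. Esco1 (chr18:10566510-10610350, minus strand) had no region within 100 kb, and the nearest, with a score of 55.6, lay 106 kb downstream of the TSS. Measured from the nearest start of any Esco1 transcript it lay at 90.02 kb, inside the window. Cdca5 (chr19:6084983-6091777, plus strand) is 6.80 kb long and lies in a gene-dense stretch with 17 other coding start sites within 100 kb. Its region, chr19:6125988-6126904, was centred 41.5 kb downstream with a score of 63.3 and a best motif of 2 mismatches. It lay within Snx15, a sorting nexin gene, 1.4 kb from the TSS of that gene. The strongest region next to Cdca5 fell outside the window, 119 kb upstream with a score of 260.4 and an exact motif.

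Ctcf (chr8:108160468-108206822, plus strand) had 2 regions, both upstream, which were the highest- and the lowest-scoring of the 12. The region chr8:108077771-108078655 had a score of 201, above that of 94.8% of all Wapal regions, and a best motif of 2 mismatches. It lay in an intron of Atp6v0d1, a subunit gene of the vacuolar proton pump, with its centre 82.3 kb from the Ctcf TSS. The region chr8:108145939-108147828 had a score of 51.4, above that of only 2.84% of regions, yet it was the widest of the 12 at 1890 bp. It was centred 13.6 kb upstream, held an exact motif 412 bp from its centre and 3 matches in all with at most 1 mismatch, and the Ctcf TSS was its nearest coding start. On the downstream side the next region was 385 kb away, with a score of 209 and an exact motif.

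**Figure D3:**
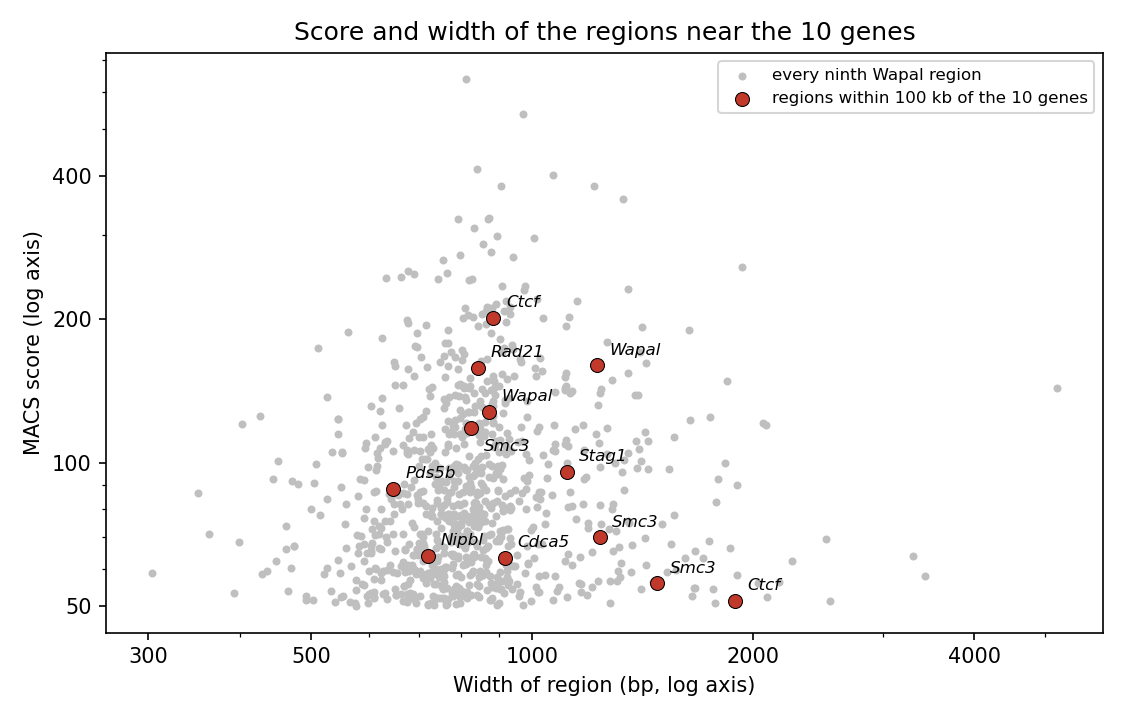
MACS score against width in bp, both on log axes, for every ninth Wapal region (grey) and for the 12 regions within 100 kb of the 10 genes (red, labelled by gene). The red points run from the Ctcf region with a score of 201 down to the other Ctcf region with 51.4, which is also the widest at 1890 bp, while the scores of all regions reach 685 and their widths 6023 bp.

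As a group, the 12 regions had a median score of 92.1 and a median width of 901 bp, against 81.4 and 812 bp over all regions. The order of the median scores turned with other choices, since the median of the members' regions was 66.9 with a window of 50 kb and 76.7 with the nearest start of any annotated transcript. A score of at least 100 was reached by 5 of the 12 (41.7%) and by 34.6% of all regions. By their centres, 2 lay in promoters (within 2 kb of any annotated TSS), 1 in an exon, 3 in introns and 6 outside genes. The member was the nearest protein-coding gene by TSS for 5 regions, namely the exon of Wapal, the intron of Pds5b, the start of Smc3 and the regions upstream of Nipbl and Ctcf. The other 7 were nearer to the start of another protein-coding gene. Neither these counts nor those of promoters, exons and introns are given with a share over all regions, so they do not set the 12 apart. Across the gene body and the 2 kb around the TSS, 4 of the 10 genes had a region (Wapal, Pds5b, Smc3 and Stag1), against 12.9% of all protein-coding genes, and 3 without the region at the Wapal exon. This count was not matched for gene length. Pds5b and Stag1 are at least 100 kb long, and 48.2% of protein-coding genes of that length had such a region.

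The distance to the nearest region ran from 0 kb at Smc3, through 6.39 kb at Nipbl, 12.6 kb at Ctcf, 17.7 kb at Wapal, 41.0 kb at Cdca5, 43.8 kb at Pds5b, 76.6 kb at Stag1 and 92.0 kb at Rad21, to 106 kb at Esco1 and 126 kb at Pds5a. The median over the 10 genes was 42.4 kb, against 72.5 kb over all protein-coding genes, whose quartiles were 28.9 and 169 kb. All 10 genes fell below the upper quartile, and Smc3, Nipbl, Ctcf and Wapal fell below the lower one. Wapal did so only through the region at its exon, without which its nearest region was 56.5 kb away, above the lower quartile. Without the region at the Wapal exon the median was 50.18 kb. From the nearest start of any annotated transcript it was 25.1 kb, against 65.3 kb over all protein-coding genes, and with a score of at least 100 it was 122 kb, against 234 kb. The regions nearest the limit of the window were that of Rad21 at 92.0 kb inside it, and, outside it, further regions of Wapal at 103.0 and 103.5 kb and that of Esco1.

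**Figure D4:**
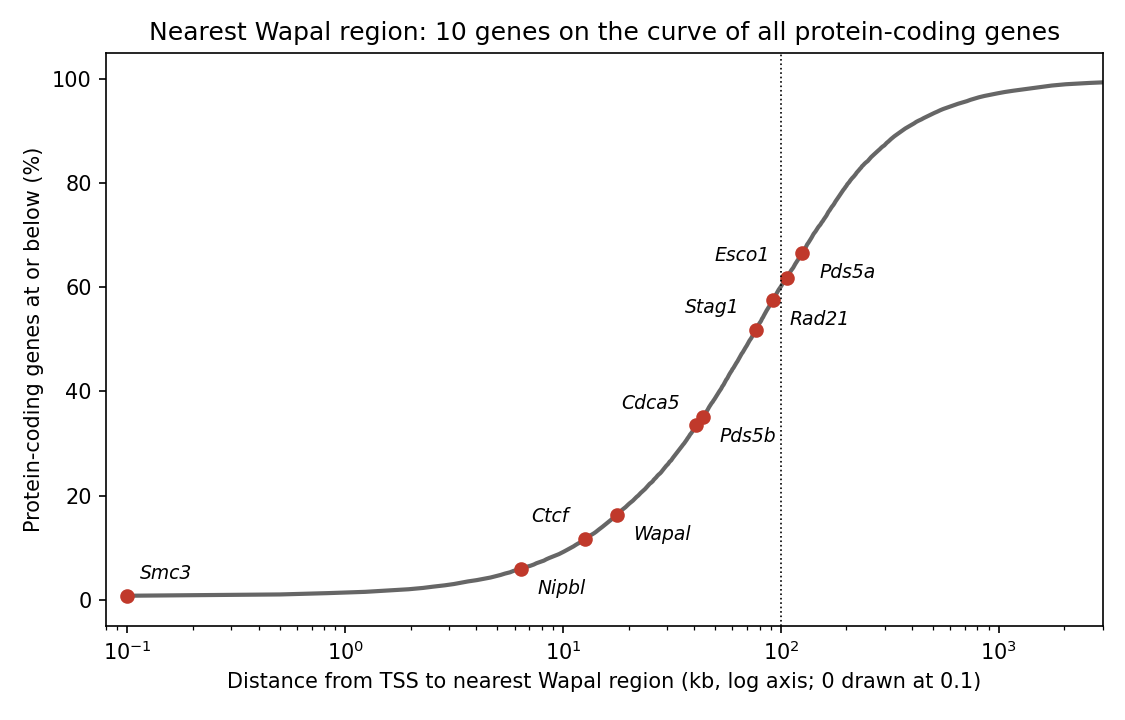
Share of protein-coding genes (%) with the nearest Wapal region at or below a given distance from the TSS (kb, log axis, with 0 drawn at 0.1), and the 10 genes as red points on that curve. Smc3, Nipbl, Ctcf and Wapal lie on the low part of the curve, and Esco1 and Pds5a lie to the right of the dotted line at 100 kb. Wapal is drawn at the distance of the region at its exon, without which its nearest region was 56.5 kb away.

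Most CTCF core motifs around these genes lay outside any Wapal region. Within 100 kb of the 10 start sites there were 15 exact matches, of which 4 (26.7%) were in a region, against 18.9% of 12721 exact matches on chromosomes 1 to 19, X and Y. With 1 mismatch allowed there were 243 matches, of which 12 (4.94%) were in a region, against 3.32% of 215438. Pds5a had 25 such matches and Esco1 21, none of them in a region, while Smc3 had 22 with 3 in a region and Nipbl had 17 with 1. Cdca5 had the most, with 39, and none was in a region. Every exact match around Smc3 and Rad21, 1 at each gene, was in a region, as was 1 of 3 at each of Stag1 and Ctcf. None was in a region at Wapal and Nipbl, with 2 each, or at Pds5b, Esco1 and Cdca5, with 1 each. Pds5a had no exact match. These counts are too small to compare the genes.

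**Figure D5:**
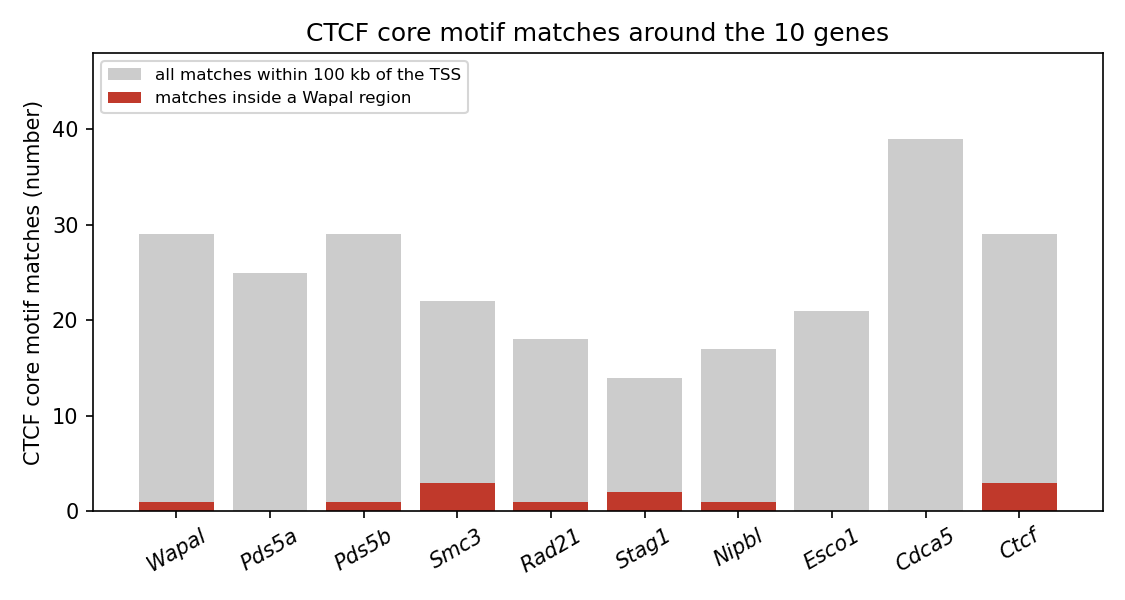
Number of CTCF core motif matches with at most 1 mismatch within 100 kb of each TSS (grey bars) and the part of them inside a Wapal region (red). The grey bars range from 14 at Stag1 to 39 at Cdca5, and the red part is at most 3.

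The core motif has a direction, and at many chromatin loops the motifs at both ends are known to face each other. The regions on either side of each TSS were therefore compared, leaving aside the region over the Smc3 TSS. Both flanking regions held the motif at 6 of the 10 genes, a count given without a share over all genes. Taken singly, 74.5% of all Wapal regions held it. At 2 of these 6 genes, Stag1 and Ctcf, the motifs faced each other across the TSS. Over the list, 26.5% of 4641 pairs of neighbouring regions with motifs did so. The 10 start sites lay in intervals between regions with a median length of 336 kb, against 368 kb for 22071 protein-coding genes with a region on either side. The shortest intervals were those of Smc3 with 69.1 kb and Wapal with 74.2 kb, the latter ended by the region at exon 3.

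A wider set of 18 further genes covered ring subunits, loading, acetylation, deacetylation, separase and its inhibitor, replication-coupled cohesion, the shugoshins Sgol1 and Sgol2, the kinases Gsg2 and Plk1, and the Ctcf paralog Ctcfl. Of these, 8 had a region within 100 kb (44.4%), against the 60.0% of all protein-coding genes, and with the 10 members 16 of 28 had one (57.1%). Chtf18, which helps to load the replication clamp, had 4 regions, more than any of the 10 members, and is named here after its count was seen. The median distance to the nearest region was 113 kb. Gsg2, which encodes the kinase haspin, was the 1 gene of these with a region within 10 kb, at 6.74 kb from its TSS with a score of 65.7. No region within 100 kb was found for Smc1a, Stag2, Rec8, Rad21l, Mau2, Esco2, Hdac8, Espl1, Sgol1 and Ddx11. The nearest region was 131 kb away at Smc1a, the partner of Smc3, 116 kb away at Stag2, the alternative to Stag1, and 318 kb away at Mau2, the partner of Nipbl in loading. Of the other SMC proteins, which belong to condensin and the Smc5/6 complex, Smc4, Smc5 and Smc6 had 2 regions each within 100 kb and Smc2 had none, with its nearest at 287 kb.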

How the data were processed

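Biotin-mediated ChIP-seq libraries from 2 FB Wapal clones, 1 BirA line and 1 input had been aligned by the authors to mm9 with Bowtie, keeping uniquely aligned reads, and regions had been called against input with MACS 1.4.2. The deposited value of each region is the authors' MACS score, which is not normalized between lists. How the regions of both clones were joined is not given in the sources used here. All 8763 regions of both lists lay within the mm9 chromosomes. The lists hold no read counts, so depth and precision are unknown.

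Starts were made 1-based, and 174 FB Wapal regions with 1 bp or more in common with the BirA list were removed. The 10 genes were taken by symbol from GENCODE M1, all of them are named, and regions were counted within 100 kb, 10 kb and 2 kb of the TSS. Of the further cohesin and SMC genes, those with a region within 10 kb and those with none within 100 kb are named, with Smc4, Smc5, Smc6, Chtf18 and those named for their role added after their counts were seen. The members and lists were chosen with earlier results of these data known, and no tests were made, since 1 joined list gives no replicates. The CTCF core motif was searched with at most 1 mismatch. A 95% Wilson interval is given for the share of the members' regions with the motif, and the other shares are given without one. Alternatives covered the score, BirA regions, TSS, distance, windows, merging and motif. Functions were tested on simulated data. Python 3.11.15, numpy 2.4.6, pandas 2.3.3, scipy 1.17.1, pysam 0.24.0 and matplotlib 3.10.9 were used.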

Additional observations from a re-analysis of the deposited data

How the results depend on the processing

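No paired analysis was possible because the deposited lists do not separate the clones. With a score of at least 100, 4 of the 10 genes had one of 5 regions within 100 kb, and the share of protein-coding genes with a region within 100 kb was 27.8%. Within 10 kb, 0 of the 10 had one, against 3.09% of protein-coding genes. In the body or within 2 kb 1 had one, Wapal, and only through the region at its exon. That count is given without a share over all genes. The median distance at that score was 122 kb and the median score 158. With the nearest start of any transcript, 9 genes had one of 15 regions within 100 kb, against 62.2% of protein-coding genes. Within 10 kb, 3 had one, against 12.3% of protein-coding genes. The median distance was then 25.1 kb and the median score 76.7. Distances to centres gave a median of 42.8 kb. Within 50 kb, 6 of the 10 genes had a region, against 38.7% of protein-coding genes, and the median score of the members' regions was 66.9. Within 200 kb, all 10 had one of 24 regions, against 79.4% of protein-coding genes. The share of genes with a region within 100 kb was 55.2% for all annotated genes and 62.7% for protein-coding genes on the members' chromosomes. The share of the members' regions with the motif was 33.3% for exact matches, against 28.3% of all Wapal regions. With 2 mismatches it was 91.7%, against 96.5% of all Wapal regions and 49.7% of stretches placed 5 kb to either side. Within 100 bp of the centre it was 33.3%, given without a share over all regions. Leaving out the region at the Wapal exon, an alternative added after seeing the data, gave a median distance of 50.18 kb and a median score of 88.3. Keeping BirA regions, or removing those within 1 kb of one, moved none of the 10 nearest distances. With 1 list and no read counts, the depth behind weak regions such as the lower-scoring Ctcf region is unknown.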
